A study of Mus musculus with 15 samples.

Results

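The genes of MHC class II presentation were described across germinal centre B cells of 2 zones and 2 affinities. The set was made of genes chosen by symbol: H2-Aa, H2-Ab1, H2-Eb1, H2-DMa, H2-DMb2, H2-Oa, H2-Ob, Cd74, Ciita and Ifi30. Of these 10 genes, 9 had a probe set annotated to no other gene, out of 19938 genes measured on the array in all. For H2-DMb2 the only probe set also carried the symbol of its near-identical neighbour H2-DMb1, so H2-DMb2 has no value here. Each of the 9 measured genes had 1 probe set. No cut on measured values picked them, but earlier results of these data were known when they were chosen.

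The cells were SwHEL B cells, which carry a knocked-in antigen receptor for hen egg lysozyme and the CD45.1 marker. They had been transferred into C57BL/6J (CD45.2) mice, which were then immunized with the lysozyme mutant HEL3x coupled to sheep red blood cells. On day 10, class-switched (IgG1+) donor germinal centre B cells with low CD38 were sorted from the spleen, all from female mice by the labels. There were 3 arrays of light zone, high-affinity cells (Lzhi), 4 of light zone, low-affinity cells (Lzlo), 4 of dark zone, high-affinity cells (Dzhi) and 4 of dark zone, low-affinity cells (Dzlo). Light zone cells were gated as CD86 high and CXCR4 low, and dark zone cells as CXCR4 high and CD86 low. All groups thus share the donor receptor, the transfer and the immunization, there is no unimmunized control, and the response of 1 transgenic receptor limits the model. The labels do not say whether replicates came from separate mice or pools, so p-values measure only the spread between these arrays, which may be in part technical.

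MHC class II molecules carry peptides from endosomes to the cell surface, where CD4 T cells read them. Germinal centre B cells divide and mutate their receptors in the dark zone, and in the light zone they take up antigen and show its peptides to follicular helper T cells. Class II is made as an alpha and a beta chain that assemble with the invariant chain, encoded by Cd74. In endosomes the invariant chain is degraded to a remnant, CLIP. The DM protein exchanges CLIP for antigen peptides, and the DO protein, which is made by B cells, inhibits DM. Transcription of most of these genes depends on the coactivator Ciita, which binds a complex of factors sitting on the X and Y boxes of their promoters.

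The promoter stretches below are shown because the X and Y boxes are what most of these genes share outside the array values. RefSeq promoters (GRCm38.p6, 250 bases before to 50 after the gene start) were read for 7 of the 10 genes, 6 of them measured; H2-Ab1, Cd74 and Ciita are named only. In 4 of them, GCAAC, a core of the X box, was followed on the same strand after 20 to 30 bases by ATTGG, the Y box or reversed CCAAT core. These cores were chosen after these promoters had been read. Both are in capitals, and each stretch is given 5′ to 3′ on the strand of the gene.
H2-Oa, chr17:34092293-34092350, plus strand: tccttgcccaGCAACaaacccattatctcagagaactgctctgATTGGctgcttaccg
H2-Ob, chr17:34238808-34238862, plus strand: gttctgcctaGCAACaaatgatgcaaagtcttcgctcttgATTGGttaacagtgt
H2-Aa, chr17:34287857-34287914, minus strand: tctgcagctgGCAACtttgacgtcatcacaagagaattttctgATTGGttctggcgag
H2-Eb1, chr17:34305766-34305822, plus strand: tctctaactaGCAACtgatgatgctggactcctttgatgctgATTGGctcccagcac

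The cores lay 28 bases apart in H2-Oa and H2-Aa, 27 in H2-Eb1 and 25 in H2-Ob. Among all 32851 promoters of the same length, 0.6% held such a pair on either strand, while GCAAC or its reverse complement occurred in 35.2% and ATTGG or its reverse complement in 37.4%. The windows of H2-DMa, H2-DMb2 and Ifi30 did not hold the pair in these letters. Between zones the 4 genes with the pair differed on the log2 scale by 0.88 (H2-Oa), 0.35 (H2-Eb1), 0.33 (H2-Aa) and 0.19 (H2-Ob). Of the measured genes whose windows did not hold it, Ifi30 differed by 0.97 and H2-DMa by 0.39. Whether the pair goes with the differences was not tested.

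The arrays gave the following picture. In all 9 genes the mean was highest in Lzlo and lowest in Dzhi, an order of extremes that 9.63% of all genes had. Without the 2 low-affinity arrays of description code D, which stand apart as described next, it held for 8 of 9, not for Ifi30, beside 7.82% of all genes. Light zone values exceeded dark zone values most for Ifi30 (1.95-fold) and H2-Oa (1.84-fold) and less for the other 7 genes. Every gene was also lower, on average, in high-affinity than in low-affinity cells. No gene of the set passed an adjusted p of 0.05 in limma's fit over all genes in any of the 7 comparisons, and Ifi30 was called between zones when the merged description code of the arrays was added as a fixed block, but not with the code as written as a random block.

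Description codes in the sample labels join arrays of different groups. They were merged into 4 codes, A to D, with replicate 1 of each group in A and replicate 2 in B; the labels write B differently for dark and light arrays, so the merge runs along the zone comparison. There is no Lzhi array of code D. What the code stands for is not stated, and arrays that share it deviated together from their group means (mean correlation 0.288 over 21 pairs, 16 of them above 0.1). The other 5 pairs all hold Dzhi replicate 1 or 4. They include Dzhi replicate 4 with Dzlo replicate 3 (-0.097) and with Lzlo replicate 3 (-0.067), all of code D. Among 63 pairs of different codes, 21 were above 0.1, and the mean was -0.08. For this set the share of the variance that went with the code differed between genes. Taken alone the code accounted for between 18.4% (Ifi30) and 61.4% (Cd74) of the variance over the 15 arrays. Codes take up some variance by chance, and the codes are not balanced over the groups. No share over all genes is given beside these. The genes' mean stood above its group means in all code C arrays and below them in all code A and B arrays.

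Array medians lay between 5.57 and 5.74 (log2 RMA values, a background-corrected, quantile-normalized and summarised signal). B cell markers were high on all arrays, with a mean of 9.93 to 10.47 over 6 genes, and germinal centre markers averaged 9.63 to 10.27 over 7 genes. The low-affinity arrays of code D, 1 per zone, stood apart. The mean of 10 neutrophil markers was 9.01 in Lzlo replicate 3 and 7.73 in Dzlo replicate 3, against 5.05 to 6.70 on the other 13 arrays. Monocyte or macrophage markers (11 genes) averaged 6.22 and 5.74 there, against 4.84 to 5.55. Dendritic cell markers (10 genes), whose cells also make class II, averaged 5.41 in Lzlo replicate 3, against 4.81 to 5.09 on the other 13 arrays. In Dzlo replicate 3 they averaged 5.09, within that range. T cell markers (9 genes) averaged 7.07 and 6.17, against 5.36 to 6.56. Germinal centre markers averaged 9.63 in Lzlo replicate 3, below the 9.83 to 10.27 of the other 13 arrays. The part of these cells in the class II values was not tested. Several differences, patterns and correlations below are therefore also given without those arrays. Results given only once may change without them. In bulk samples, fewer cells of a type and less RNA per cell cannot be told apart.

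Ifi30 encodes the gamma-interferon-inducible lysosomal thiol reductase, which opens disulfide bonds of antigens before their peptides are loaded (chromosome 8). Its log2 values were 10.62, 11.14 and 11.16 in Lzhi and 11.12, 11.26, 12.08 and 11.42 in Lzlo. In the dark zone they were 9.77, 10.15, 10.64 and 10.01 in Dzhi and 9.92, 9.77, 11.12 and 10.65 in Dzlo. The zones were nearly apart: 5 of 7 light zone arrays lay above all dark zone arrays, and the high dark zone value, 11.12, was Dzlo replicate 3. The light zone exceeded the dark zone by 0.97 ± 0.22 (SE), or 1.95-fold (limma adjusted p = 0.152). With the code as a block the difference was 1.03 ± 0.16 and passed, with an adjusted p of 0.0171. With the code as written, which splits B by zone, as a random block it was 0.97 ± 0.20 and did not pass (adjusted p = 0.0737). Without the low-affinity arrays of code D it was 0.99. Light exceeded dark in 7 of 7 pairs of arrays that shared a code and an affinity, by 0.52 to 1.49.

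H2-Oa encodes the alpha chain of DO, which inhibits peptide exchange by DM (chromosome 17). It had values of 10.19, 9.99 and 11.08 in Lzhi, 10.74, 10.33, 11.76 and 11.38 in Lzlo, 9.10, 9.33, 10.64 and 9.27 in Dzhi, and 10.02, 9.38, 10.97 and 10.14 in Dzlo. Over the 15 arrays it spanned 2.66, the widest range of the set, and its zones overlapped, with 3 of 7 light zone arrays above all dark zone arrays. The difference between zones was 0.88 ± 0.31 (adjusted p = 0.703) and 0.95 ± 0.21 with the code as a block (adjusted p = 0.0928). It was above 0 in 7 of 7 pairs, at 0.45 to 1.24.

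H2-Ob encodes the beta chain of the same DO protein (chromosome 17). It had values of 11.35, 10.69 and 11.26 in Lzhi, 11.77, 11.41, 11.24 and 11.15 in Lzlo, 11.03, 10.50, 10.94 and 11.07 in Dzhi, and 11.39, 11.20, 11.25 and 11.05 in Dzlo. The groups overlapped widely. Between zones it differed by 0.19 ± 0.13 (adjusted p = 1), with light above dark in 6 of 7 pairs. Whether the differences of the DO chains differ from each other was not tested.

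H2-DMa encodes the alpha chain of DM, the exchange factor that DO inhibits (chromosome 17). It had values of 10.90, 10.80 and 11.63 in Lzhi, 11.39, 10.89, 11.66 and 11.88 in Lzlo, 10.75, 10.41, 11.51 and 10.17 in Dzhi, and 11.28, 10.27, 11.62 and 11.15 in Dzlo. The SD within a group was 0.42 to 0.58, and the zones differed by 0.39 ± 0.25 (adjusted p = 1). Even so, light exceeded dark in 7 of 7 pairs within a code.

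H2-Aa and H2-Ab1 encode the alpha and beta chains of the class II molecule I-A (both on chromosome 17). H2-Aa had values of 11.75, 11.75 and 12.22 in Lzhi, 11.91, 11.83, 12.22 and 12.30 in Lzlo, 11.42, 11.35, 11.88 and 11.43 in Dzhi, and 11.74, 11.45, 12.10 and 11.85 in Dzlo. H2-Ab1 had values of 12.07, 12.17 and 12.56 in Lzhi, 12.24, 12.23, 12.66 and 12.67 in Lzlo, 11.79, 11.74, 12.39 and 11.83 in Dzhi, and 11.97, 11.81, 12.62 and 12.40 in Dzlo. The Lzlo arrays of codes C and D were among the highest in both genes, and 5 of 8 dark zone arrays lay below all light zone arrays in each. H2-Aa differed between zones by 0.33 ± 0.13, or 1.26-fold (adjusted p = 0.866), and H2-Ab1 by 0.29 ± 0.15, or 1.22-fold (adjusted p = 1).

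H2-Eb1 encodes the beta chain of I-E (chromosome 17). C57BL/6 mice, the strain of the recipients here, make no E alpha chain and therefore no I-E protein; the labels do not give the donors' background. H2-Eb1 had values of 11.43, 11.42 and 11.81 in Lzhi, 11.67, 11.51, 11.88 and 12.05 in Lzlo, 11.04, 11.10, 11.60 and 10.83 in Dzhi, and 11.44, 11.03, 11.65 and 11.80 in Dzlo. Its difference between zones, 0.35 ± 0.14 (adjusted p = 0.952), had the size of those of the I-A chains, and light exceeded dark in 7 of 7 pairs.

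Cd74, the invariant chain, occupies the groove of new class II molecules and steers them to endosomes (chromosome 18). It had values of 11.22, 11.23 and 11.94 in Lzhi, 11.65, 11.56, 12.22 and 12.34 in Lzlo, 10.99, 10.90, 11.90 and 11.28 in Dzhi, and 11.26, 10.90, 11.91 and 11.74 in Dzlo. The high-affinity arrays of code C, 11.94 in Lzhi and 11.90 in Dzhi, were nearly level, and the other arrays of both groups were lower. The zones differed by 0.34 ± 0.21 (adjusted p = 1). With the code as a block the estimate was 0.39 ± 0.09 and did not pass (limma adjusted p = 0.1375). The residual SD was then 0.16, against 0.43 without the block.

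Ciita is the coactivator on which transcription of the class II chain genes depends (chromosome 16). Its values were 8.62, 8.15 and 8.03 in Lzhi and 9.13, 8.72, 9.08 and 8.97 in Lzlo. In the dark zone they were 7.91, 7.82, 8.47 and 8.59 in Dzhi and 8.28, 8.08, 8.57 and 8.64 in Dzlo. All 4 Lzlo arrays lay above all 11 other arrays, which held for 0.196% of all genes and for no other gene of the set. The mean of 5 naive or memory B cell markers had the same pattern, at 6.311 to 6.785 in Lzlo and 5.880 to 6.305 on the other arrays, and its part in the Ciita values was not tested. In Ciita the other 3 groups overlapped. Ciita differed between zones by 0.32 ± 0.15 over both affinities (adjusted p = 1). The difference was 0.58 among low-affinity cells and 0.07 among high-affinity cells, where leaving out 1 array moved it as low as -0.11.

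**Figure D1:**
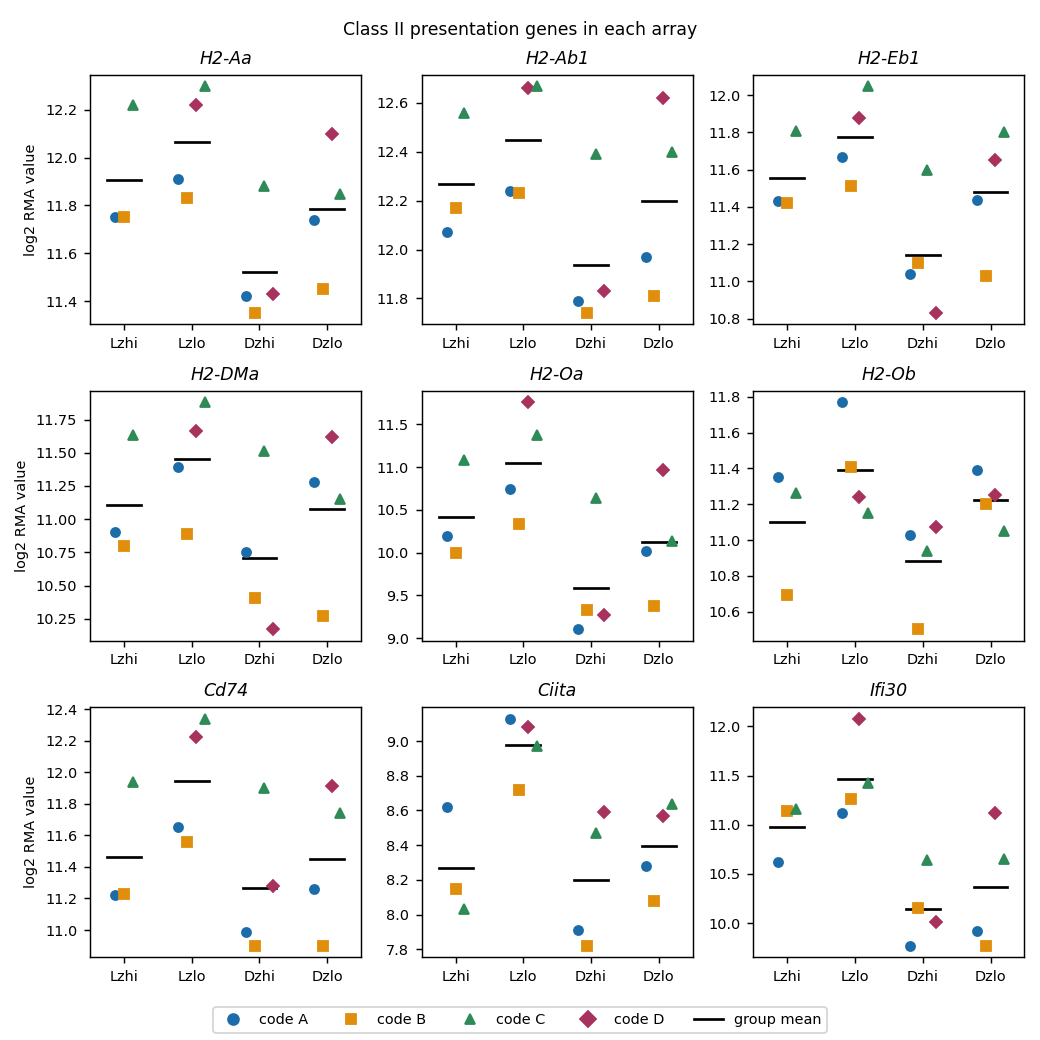
Log2 RMA values (vertical axis) of the 9 genes on each of the 15 arrays, by group along the horizontal axis, with markers for description codes A to D and a horizontal line for each group mean (n = 3 for Lzhi, 4 for each other group). Ciita in Lzlo, at 8.72 to 9.13, lies above every other array, and Ifi30 shows the light zone mostly above the dark zone.

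In the comparison of zones, 0 of 9 genes were called over both affinities at an adjusted p under 0.05, where 0.155% of all genes (31) were called. At an unadjusted p under 0.05, 5 of 9 genes were higher in the light zone, as were 2.47% of all genes. The median difference over the 9 genes was 0.34, beside -0.01 over all genes. With the code as a block 1 of 9 was called, Ifi30, beside 0.451% of all genes (90). None of the 9 was called with the code as written as a random block, where 46 genes were; that is 0 of 9 beside 0.231% of all genes. At an unadjusted p under 0.05 the fixed block gave 8 of 9, beside 6.95% of all genes. Among high-affinity cells 0 of 9 were called (0.015% of all genes, or 0.0552% with the block, where 0 of 9 were called too). At an unadjusted p under 0.05 there were 1 of 9 (2.8% of all genes) and, with the block, 5 of 9 (4.07%). Among low-affinity cells 0 of 9 were called (0.01% of all genes, or 0.15% with the block and again 0 of 9). At an unadjusted p under 0.05 there were 3 of 9 (3.53%) and, with the block, 6 of 9 (5.53%). The median over the 9 genes was 0.39 among high-affinity cells and 0.37 among low-affinity cells. Marker lists differed between zones too. Plasma cell markers were below 0 in 6 of 7 (median -0.24). Naive or memory B cell markers were above 0 in 4 of 5 (median 0.19) and dendritic cell markers in 9 of 10 (median 0.07). Of the 10 dendritic cell markers, 9 were dim, with means below the median of all genes, and no direction is read from them. Without the low-affinity arrays of code D these counts were 6 of 7, 3 of 5 and 7 of 10. With all arrays 0 were called in each list, and their part in the class II values was not tested.

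Pairs of arrays that share code and affinity gave the same direction in most genes. Light exceeded dark in all 7 pairs for 7 of 9 genes, which held for 2.06% of all genes; H2-Ob and Ciita each did so in 6 of 7. The exceptions were H2-Ob in code D and Ciita in the high-affinity pair of code C, at -0.44. Without the low-affinity pair of code D, light exceeded dark in all 6 remaining pairs for 8 of 9 genes, beside 2.85% of all genes. In no gene were the 7 light zone arrays all above the 8 dark zone arrays, which held for 0.0802% of all genes.

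**Figure D2:**
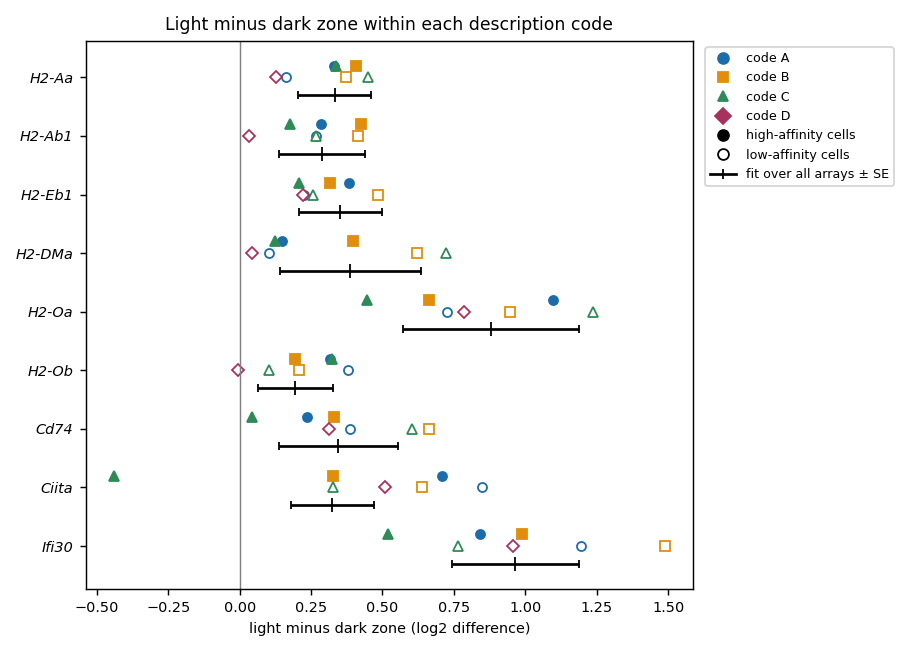
Light minus dark zone (horizontal axis, log2 difference) for each of the 9 genes within each description code, with filled markers for high-affinity and open markers for low-affinity pairs, and the fit over all arrays ± SE as a bar. Ifi30 and H2-Oa lie furthest to the right, with pairs of 0.52 to 1.49 and 0.45 to 1.24.

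In the comparison of affinities, all 9 genes were lower in high-affinity cells, and 0 of 9 were called (0.0% of all genes) over both zones, with limma's adjusted p at 0.999 for each. With the code as a block 0 of 9 and 0.0% of all genes were called as well. At an unadjusted p under 0.05, 2 of 9 genes were lower in high-affinity cells, as were 2.67% of all genes. The block put 6 of 9 past that unadjusted threshold, beside 6.09% of all genes. The estimates ran from -0.21 ± 0.13 for H2-Aa to -0.59 ± 0.31 for H2-Oa, with Ciita at -0.45 ± 0.15, and their median was -0.33. Marker lists of other cells moved with affinity too. Plasma cell markers were above 0 in 7 of 7 (median 0.26). Naive or memory B cell markers were below 0 in 5 of 5 (median -0.31). So were B cell markers in 6 of 6 (median -0.17), neutrophil markers in 9 of 10 (-0.57), T cell markers in 7 of 9 (-0.35) and monocyte or macrophage markers in 8 of 11 (-0.09). Without the low-affinity arrays of code D the last 3 medians were 0.11, -0.17 and 0.03. Plasma cell markers were then above 0 in 6 of 7. Over all 15 arrays, 7 of 9 T cell and 9 of 11 monocyte or macrophage markers were dim, with means below the median of all genes. So were 4 of 10 neutrophil, 3 of 7 plasma cell and 1 of 5 naive or memory B cell markers. With all arrays 0 were called in each list, and their part in the class II values was not tested. H2-Ab1 was lower in the high-affinity array in 7 of 7 pairs within a code, which held for 0.898% of all genes. The other 8 genes were lower in 5 or 6 of 7. Without the dark zone pair of code D, H2-Ab1 and Ciita were lower in all 6 remaining pairs, beside 2.42% of all genes.

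In the dark zone the size of these differences varied by code. There the median of high minus low over the 9 genes was -0.795 in code D, against -0.354 in code A, -0.051 in code B and -0.012 in code C. The dark zone pairs of codes D and A did not deviate together over all genes (correlation -0.097 and -0.059). The low-affinity array of that pair is the one with neutrophil markers at 7.73. Without the 2 low-affinity arrays of code D the median over both zones was -0.23. H2-Oa stood at -0.33 there, Ifi30 at -0.13 against -0.36 with them, H2-Aa at -0.13 and H2-Ab1 at -0.12. H2-DMa stood at -0.23 against -0.36, Cd74 at -0.21 against -0.33, H2-Eb1 at -0.24 against -0.28 and Ciita at -0.41 against -0.45. H2-Ob went the other way, to -0.34 without those arrays against -0.31 with them. Ifi30 in the dark zone alone turned to 0.03, against -0.22 with them.

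Within the light zone, Ciita was the gene that separated the affinities. The 3 Lzhi arrays, at 8.03 to 8.62, lay below the 4 Lzlo arrays, at 8.72 to 9.13, a separation in that direction that 2.29% of all genes showed and no other of the 9. The difference was -0.71 (unadjusted p = 0.00522 and adjusted p = 1 in limma), at -0.52, -0.57 and -0.94 in codes A, B and C, and -0.68 without the low-affinity arrays of code D. In the same comparison naive or memory B cell markers were below 0 in 5 of 5 (median -0.52, or -0.55 without those arrays) and T cell markers in 9 of 9 (median -0.66, or -0.19 with 7 of 9 below 0 without them), and their part was not tested. In the dark zone Ciita differed by -0.20. The test of whether the affinity difference of Ciita depended on zone gave -0.51 (unadjusted p = 0.101 in limma). Of the 9 genes 0 were called in the light zone (0.0% of all genes), 0 in the dark zone (0.0%) and 0 for the dependence on zone (0.0%). At an unadjusted p under 0.05 there were 1, 0 and 0 of 9, beside 797, 320 and 266 of all 19938 genes. With the code as a block there were 2, 3 and 0 of 9 at that threshold, beside 942, 566 and 380 genes.

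**Figure D3:**
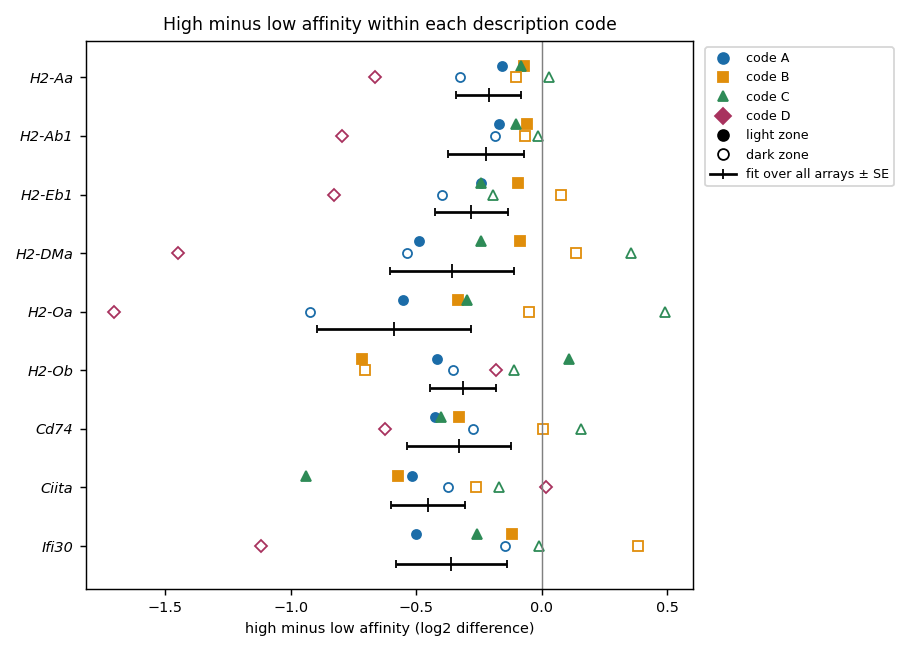
High minus low affinity (horizontal axis, log2 difference) for each of the 9 genes within each description code, with filled markers for the light zone and open markers for the dark zone, and the fit over all arrays ± SE as a bar. The dark zone pair of code D lies far to the left in H2-Oa, H2-DMa and Ifi30, and Ciita is spread from -0.94 to 0.02.

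The order of group means was Lzlo, Lzhi, Dzlo, Dzhi for 7 of 9 genes (4.72% of all genes), and Lzlo, Dzlo, Lzhi, Dzhi for H2-Ob and Ciita. Without the low-affinity arrays of code D it held for 6 of 9 genes (4.34% of all genes), with Dzhi above Dzlo in Ifi30. Few neighbours in that order differed by more than the larger of their SDs. Those that did were Lzlo and Lzhi in Cd74 and Ifi30, Lzlo and Dzlo in Ciita, and, narrowly in both genes, Dzlo and Dzhi in H2-Aa and H2-Eb1. Ifi30 averaged 10.97 ± 0.31 in Lzhi (SD, n = 3) and 11.47 ± 0.43 in Lzlo, 10.14 ± 0.37 in Dzhi and 10.37 ± 0.64 in Dzlo (SD, n = 4 each). Ciita averaged 8.27 ± 0.31 in Lzhi, 8.98 ± 0.18 in Lzlo, 8.20 ± 0.39 in Dzhi and 8.40 ± 0.26 in Dzlo, with the same n.

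**Figure D4:**
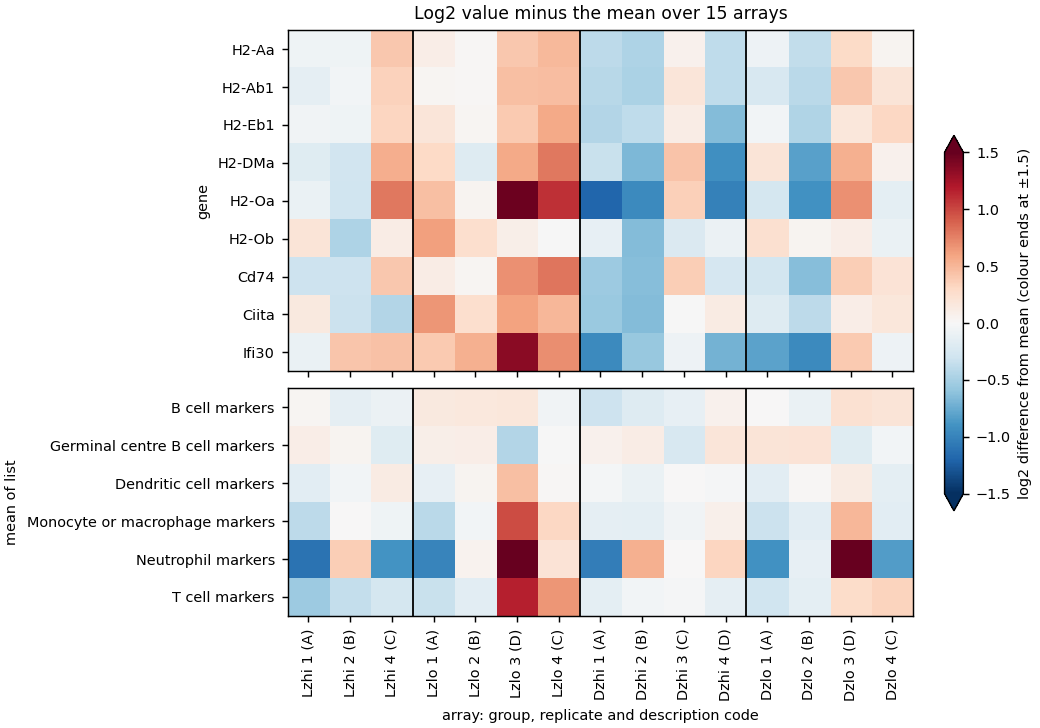
Log2 value minus the mean over 15 arrays for the 9 genes (upper rows) and for the mean of 6 marker lists (lower rows), with arrays in columns by group, replicate and description code. Lzlo replicate 3 and Dzlo replicate 3 carry the strongest neutrophil marker values, 9.01 and 7.73, and Lzlo replicates 3 and 4 hold the highest values in 7 of 9 gene rows.

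Across the 15 arrays 7 of the 9 genes moved closely together, and H2-Ob and Ciita stood outside. H2-Aa had a Pearson r of 0.969 with H2-Ab1 and 0.972 with H2-Oa. The median r with the other 8 genes was 0.809 to 0.932 for those 7 genes, 0.597 for Ciita and 0.354 for H2-Ob. After group means were removed it was 0.343 for Ciita and -0.04 for H2-Ob. Without the low-affinity arrays of code D, over 13 arrays, the median r was 0.775 to 0.916 for the 7 genes, 0.536 for Ciita and 0.338 for H2-Ob. These correlations describe arrays that share codes, normalization and amplification, and the points are not independent.

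**Figure D5:**
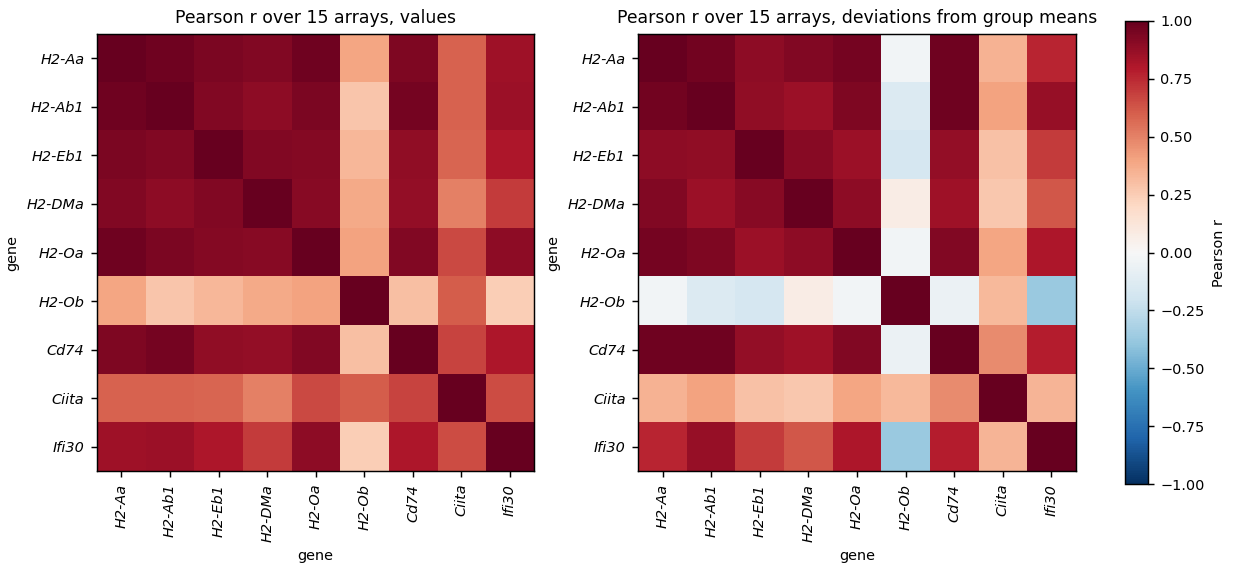
Pearson r (colour) between each pair of the 9 genes over 15 arrays, from log2 values at the left and from deviations from group means at the right. H2-Ob and Ciita stand out as pale rows, and the other 7 genes form a dark block in both panels.

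By Pearson r over the 15 arrays, the genes most alike to the mean of the set, among 17135 genes compared, were Ncf1 (0.975), a subunit of the phagocyte NADPH oxidase, Srpk3 (0.968), a protein kinase, and Napsa (0.965), an aspartic protease. Next came Ubxn11 (0.954), Sh3bgrl3 (0.945) and Ctsa (0.945), a lysosomal carboxypeptidase. Fermt3 (0.942), Cd52 (0.942), Sema7a (0.940) and Hcls1 (0.940) followed. For single genes, the most alike were Ncf4 (0.979) for H2-Aa, Sh3bgrl3 (0.973) for H2-Eb1, Rac2 (0.935) for H2-DMa and Ncf1 (0.977) for H2-Oa. Cd74 was most like Ctsa (0.964), Ciita like Acap1 (0.934) and Ifi30 like Themis2 (0.943), while H2-Ob reached at most 0.835, with Rgp1. Without the low-affinity arrays of code D, Ncf1 was again first (0.982), 4 of the 10 genes most alike to the mean stayed among the top 10 and the others ranked down to 25. Over those 13 arrays Sash3 led for H2-DMa (0.949), Ncf4 for H2-Oa (0.976) and Adcy7 for Ciita (0.940), and the leading genes of the others were the same. The measure reads differences between codes as well as between groups.

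Further genes of the pathway were read from lists. The remaining class II chain genes, 2 of 4 measured, had 0 called, with H2-Eb2 at 0.36 ± 0.17. H2-Ea, the E alpha chain gene, had values of 4.90 to 5.48 in the light zone, below the array medians, and no direction is read from it. Among 10 endosomal proteases and inhibitors, 8 were above and 2 below 0 with 0 called and a median of 0.12. Ctsh, an aminopeptidase of lysosomes, differed by 0.48 ± 0.15 (limma adjusted p = 0.532). It passed with the merged code as a fixed block (limma adjusted p = 0.0172), as did 0.451% of all genes. Ctsc, the dipeptidyl peptidase cathepsin C, differed by 0.66 ± 0.19 (adjusted p = 0.375). Light exceeded dark in 7 of 7 pairs for both. Ctsb, cathepsin B, differed by 0.47 ± 0.29 (adjusted p = 1).

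Cd83 was called. It is a membrane protein that keeps class II at the surface by blocking the ubiquitin ligase Marchf1. Cd83 values lay at 9.47 to 10.44 in the light zone and 7.93 to 9.43 in the dark zone, with no overlap, which held for 0.0802% of all genes in that direction. The difference was 1.49 ± 0.18, or 2.81-fold (limma adjusted p = 0.00324). Marchf1 itself, which marks class II for degradation, differed by -0.26 ± 0.11 (adjusted p = 1) and was lower in the light zone in 6 of 7 pairs. Of 5 measured ubiquitin ligases and partners, 2 were above and 3 below 0. Cd83 was the 1 called, beside 0.155% of all genes, and Marchf9, a related ligase, stood at 0.08 ± 0.16.

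The factors upstream of Ciita's target promoters showed no shared direction. Of 8 genes of the X and Y box complex, 3 were above and 5 below 0, with 0 called. Rfx5, which binds the X box, stood at 0.39 ± 0.20, and of the subunits that bind the Y box Nfya stood at 0.36 ± 0.19 and Nfyc at -0.17 ± 0.15. Of 11 measured regulators of Ciita, 5 were above and 6 below 0 with 0 called. Without the low-affinity arrays of code D, 6 were above and 5 below 0. Irf4, a factor induced by receptor signalling, differed by 0.74 ± 0.17 (adjusted p = 0.165), Foxp1 by -0.59 ± 0.15 (adjusted p = 0.247) and Irf1 by 0.24 ± 0.24 (adjusted p = 1). Invariant chain partners and vesicle traffic genes, 10 measured, had 4 above and 6 below 0 with 0 called; the list holds Cxcr4, on which the zones were sorted. The tetraspanin Cd82 stood at 0.63 ± 0.16 (adjusted p = 0.24). The motor protein gene Kif5b stood at -0.36 ± 0.53, and array weights turned its sign. The class I presentation genes, 12 of 16 measured, had 11 above and 1 below 0 with 0 called and a median of 0.15. Tapbp, which holds class I at the peptide transporter, stood at 0.64 ± 0.25, the transporter subunit Tap2 at 0.29 ± 0.12 and the chaperone Calr at 0.26 ± 0.14 (adjusted p of 0.913 or above). Whether the class II and class I medians differ was not tested.

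In the affinity comparison over both zones, no gene of these lists was called, at the same background of 0.0% of all genes. The medians were -0.25 for the remaining class II chains, -0.18 for the proteases, -0.10 for the ligases and partners, -0.11 for the X and Y box complex, -0.29 for the regulators of Ciita, -0.06 for the traffic genes and -0.07 for class I. Without the low-affinity arrays of code D they were -0.20, -0.09, -0.04, -0.09, -0.17, -0.04 and -0.07 in the same order. Class I genes were then below 0 in 12 of 12, against 7 of 12 with those arrays.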

How the data were processed

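Sorted-cell RNA of 15 samples was amplified before hybridisation, with 1 whole-transcript array each, as the labels' protocols state. The authors deposited log2 values of 28853 probe sets made with RMA, and genome build mm8 is named, per the submitters' processing notes; no software version is given in the sources used here. Differences of dim probe sets are compressed by RMA, and the number of arrays limits the precision. Levels of the 9 genes were not compared with each other. Levels of marker lists and of H2-Ea were set beside the array medians or the median of all genes.

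The platform annotation names a single gene for 21789 probe sets, several for 1621 and none for 5443, and those without a single gene were left out. RefSeq matched 21698 of the single-gene probe sets by Entrez ID. For 999 genes with more probe sets the brightest was kept, which left 19938 genes, with no filter. All 15 arrays entered 1 limma fit of 4 group means (limma 3.58.1, R 4.3.3, 11 residual degrees of freedom), with Benjamini-Hochberg adjustment over all genes within each comparison. Gene coordinates are not given, as the RefSeq tables are of GRCm38.p6; promoter stretches carry that build. The fit was tested on simulated data. Figures used matplotlib 3.10.9.

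The genes and lists were chosen with earlier results of these data known. Named genes were all 9 measured genes of the set and, per list, every gene called plus up to 3 with the largest zone difference. Genes most alike were the 10 with the highest Pearson r to the mean of the set and the top gene per member, leaving out predicted genes, olfactory and vomeronasal receptors, small RNAs and segments of antigen receptors. Arrays with the same description code deviated together (mean correlation 0.288, 16 of 21 pairs above 0.1). Over 63 pairs of different codes the mean was -0.08, with 21 above 0.1. The code is given as a block beside the results it changes. The alternatives changed the block, weights, filter, probe set rule, variance model, threshold and arrays included.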

Additional observations from a re-analysis of the deposited data

Results flagged for a closer look

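On Dzhi replicate 3, an array of code C, 3 genes stood far above the other 3 Dzhi arrays, whose values lay close together. H2-Aa was at 11.88, H2-Ab1 at 12.39 and H2-Oa at 10.64 there, each with a gap to its nearest neighbour that exceeds Dixon's 95% critical value for 4 arrays. Of the sets of 1 gene in 1 group of 4 arrays, 27 were examined, and chance marks about 1 in 20 such sets. The 3 genes correlate across the arrays, so these are not 3 independent events. The other code C arrays were also above their group means in the mean of the set, and the part of the code was not tested apart from the block given above.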

How the results depend on the processing

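Under every alternative run, all 9 genes kept their direction in the zone comparison over both affinities and in the affinity comparison over both zones. The calls depended on the block. Between zones, 31 genes were called, against 68 with array weights, 90 with the code block, 83 with the title number as replicate block, 49 at an adjusted p under 0.1, and 18 to 37 when 1 array was left out (20 without Lzhi replicate 1, 18 without Lzhi replicate 2, 20 without Lzlo replicate 2, 19 without Dzlo replicate 1). Genes of the set called were 0, against 1 with array weights or the code block (Ifi30), 2 with the title-number block (Ifi30 at 1.07 and H2-Oa at 1.03), and 0 with the code as written as a random block (46 genes called) or with any array left out. The title number is not shown to pair arrays: the 21 pairs that share it had a mean correlation of 0.227, but the 5 of these with different codes had -0.07, from -0.378 to 0.358.

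Among high-affinity cells 3 genes were called, against 5 with array weights, 5 with the random block, 11 with the code block, 1 with only the 2 groups, 7 with the title-number block, 6 without code D, 5 without its low-affinity arrays, 5 at an adjusted p under 0.1, and 1 to 4 with 1 array left out. Among low-affinity cells 2 were called, against 16 with array weights, 17 with the random block, 30 with the code block, 7 without dim genes, 6 with a trended robust variance, 8 with averaged probe sets, 0 with only the 2 groups, 18 with the title-number block (1 of the set, Ifi30 at 1.10), 4 without code D, 13 at an adjusted p under 0.1, and 0 to 4 with 1 array left out. For affinity over both zones 0 were called, against 1 with array weights, with the title-number block, or without the low-affinity arrays of code D. The cause of these changes was not tested.

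A few differences reversed. Ifi30 in the dark zone, high minus low, became 0.075 without code D and 0.029 without its low-affinity arrays, and ran from -0.423 to 0.029 with 1 array left out (0.029 without Dzlo replicate 3). Between zones among high-affinity cells, leaving out 1 array gave -0.108 to 0.198 for Ciita (below 0 without Lzhi replicate 1, Dzhi replicate 1 or Dzhi replicate 2) and -0.04 to 0.409 for Cd74 (below 0 without Lzhi replicate 4). Over both affinities it gave -0.008 to 0.122 for H2-Ea, -0.013 to 0.151 for Marchf9 and -0.644 to 0.184 for Kif5b, which was 0.062 with array weights. Ctsh passed with the code block, Foxp1 without code D and Cd82 with the title-number block.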
